A study of Homo sapiens with 8 samples.

Results

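The 41 genes described here encode the machinery of autophagy and of the lysosome, and they are 41 of the 16782 genes in the deposited table. They were taken by gene symbol and no measured value entered the rule, but the list was drawn up with earlier results of these data known. Each symbol occurred once. By role, 3 encode autophagy receptors, 4 belong to the ATG8 family, 12 act in initiation and lipidation, 3 are MiT/TFE transcription factors, 3 sit in the lysosomal membrane, 12 are lysosomal hydrolases or their cofactors, and 4 are subunits of the vacuolar ATPase. The RNA came from CAKI1, a line of human renal carcinoma cells derived from a metastasis, which had been deprived of serum for 24 h. The hLcn-2 group (n = 4) was then stimulated for 24 h with 5 µg/mL holo-lipocalin-2, the iron-loaded form of the siderophore-binding protein lipocalin-2, and the control group (n = 4) was left unstimulated. According to the study's methods the protein was recombinant human Lcn-2 expressed in bacteria with a glutathione-S-transferase tag for purification and loaded with iron-catechol, so protein and iron cannot be told apart in this comparison.

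Autophagy encloses cytoplasm, organelles or protein aggregates in a double membrane, the autophagosome, which fuses with the lysosome. ATG proteins build this membrane, lipid-linked ATG8 proteins mark it, and receptors such as SQSTM1 tether cargo to it. In the lysosome, acid hydrolases degrade the content at the low pH made by the vacuolar ATPase, and iron held in ferritin is returned to the cytosol by this route. TFEB, TFE3 and MITF bind the E-box CACGTG, most strongly within the longer palindrome TCACGTGA (the core of the CLEAR element), and activate many of these genes. In renal carcinoma these factors are also known from translocations of TFE3 and TFEB.

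Promoter sequences were available from RefSeq (GRCh38.p14, 250 bases before to 50 bases after a start) for 33 of the 41 members, with 44 promoters in all. CACGTG, which reads the same on both strands, was found in 8 of the 44 promoters (18.2%), each of a different member, and in 7.26% of the 35116 promoters of the whole table. TCACGTGA, which contains it, was found in 5 of the 44 (11.4%) against 0.98% of all promoters. These 8 promoters are shown because they hold the letters that the MiT/TFE members are known to bind, with CACGTG in capitals and each sequence running 5′ to 3′ on the strand of the gene.
ATG3, chr3:112561963-112562000, minus strand: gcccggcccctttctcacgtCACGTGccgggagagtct
NEU1, chr6:31862922-31862967, minus strand: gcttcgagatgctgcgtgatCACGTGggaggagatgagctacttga
CTSD, chr11:1763949-1763994, minus strand: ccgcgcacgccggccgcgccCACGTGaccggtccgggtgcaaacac
LAMP1, chr13:113297037-113297243, plus strand: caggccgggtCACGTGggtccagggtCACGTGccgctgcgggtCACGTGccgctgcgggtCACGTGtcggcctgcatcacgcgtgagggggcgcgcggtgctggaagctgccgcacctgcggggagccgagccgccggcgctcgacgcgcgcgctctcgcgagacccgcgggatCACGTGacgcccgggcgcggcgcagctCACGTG
ATG14, chr14:55411831-55411871, minus strand: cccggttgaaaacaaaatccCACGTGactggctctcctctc
ATP6V0D1, chr16:67481191-67481236, minus strand: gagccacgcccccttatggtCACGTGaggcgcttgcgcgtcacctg
MCOLN1, chr19:7522573-7522623, plus strand: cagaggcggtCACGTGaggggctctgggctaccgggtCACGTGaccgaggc
CTSA, chr20:45891283-45891325, plus strand: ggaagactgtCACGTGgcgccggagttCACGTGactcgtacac

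LAMP1, a heavily glycosylated protein that lines the lysosomal membrane, held 6 copies of CACGTG, the first 192 bases and the last 1 base before its start. MCOLN1, the lysosomal calcium channel, and CTSA, the protective protein cathepsin A, held 2 copies each, all within 42 bases before the start. ATG3, the enzyme that transfers ATG8 proteins to lipid, also held 2, the one shown, 18 bases before the start, and a second within TCACGTGA, 5 bases after the start, which lies beyond the stretch printed. A further motif, TGACNNNGC, the core of the antioxidant response element bound by NRF2, was found on either strand in 8 of the 44 promoters (18.2%) and in 13.3% of all promoters. The members holding it were ATP6V0D1, CTSA, CTSD, CTSL, CTSZ, LAMP1, MAP1LC3B and NPC2. The motif is shown only for CTSL, chosen as the one member called by a fit to all samples. There it lies on the opposite strand and its letters are in capitals. Its first base is 23 bases before the start.
CTSL, chr9:87726076-87726124, plus strand: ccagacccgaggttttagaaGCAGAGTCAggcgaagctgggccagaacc
TGATGCAA, an element bound by ATF4 with C/EBP partners, was in 0 of the 44 promoters and in 0.866% of all promoters. A match gives only the letters in these windows.

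The libraries held between 1501563 and 13953090 reads, the worth of 3 reads lay between 0.211 and 1.98 CPM, and each read stands for 1 molecule because of the unique molecular identifiers. Values are the deposited normalized counts on the scale of CPM (reads relative to a scaled library size), and the log2 fold changes given are differences, hLcn-2 minus control, of log2(normalized count + 1), which understates the change of low genes. All 41 members passed the filter of 1 CPM or more in 2 or more samples, as did 15593 genes in all. Of the epithelial and renal carcinoma markers, PAX8 lay between 205 and 245 CPM in controls and between 201 and 242 CPM in hLcn-2 samples. MET, VIM, CA12, KRT18 and KRT8 were also present, the lowest value being 25.4 CPM (KRT8, controls). PAX2 of the same list was low, at 1.32 to 5.29 CPM in controls and 2.47 to 3.91 CPM in hLcn-2 samples, and KRT19 was absent. The monocyte marker CD14 did not exceed 1.59 CPM in any sample. The last exon of 11 members, among them SQSTM1, GABARAP, BECN1, ATG14, CTSA and CTSD, overlaps an exon of another gene, and their counts are uncertain. The sources do not state whether strand was used. For GABARAP, ATG9A, MCOLN1, CTSD and NPC2 the other gene lies on the same strand, where use of strand would not separate them. The labels do not say whether samples of a group were separate cultures, so that p-values measure the spread between these samples. Same-numbered samples deviated together from their group means, which is why limma was also run with the replicate number as a block.

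The members hardly moved as a list. Their median log2 fold change was 0.060, with 27 higher and 14 lower after hLcn-2, between -0.38 (MITF) and 0.40 (BECN1), while the median of all genes tested was 0.00083 with 50.2% higher. In limma without the block, 0 of the 41 members and 0 of all genes (0.0%) had an adjusted p-value under 0.05, and 1 member (MITF, lower) had an unadjusted p under 0.05, where 2.28% of all genes did. EdgeR's quasi-likelihood test and DESeq2 without the block also called 0 genes after adjustment (0.0% each). Each gave 1 member (2.44%), again MITF, an unadjusted p under 0.05, near the 2.08% and 1.82% of all genes. With the block, limma called 0 members and 0.282% of all genes after adjustment. Without adjustment it gave 6 members (14.6%) a p under 0.05, 4 higher (TFE3, BECN1, CTSL, LAMP1) and 2 lower (OPTN, MITF), close to the 12.2% of all genes. EdgeR's quasi-likelihood test with the block called 1 member (2.44%), CTSL, as higher, where it called 1.49% of all genes, and DESeq2 with the block called 0 of the 36 members to which it gave an adjusted p, where it called 2.02% of the genes with one. Without adjustment, DESeq2 with the block gave 5 members (12.2%) a p under 0.05, where it did so for 7.38% of all genes. The groups did not overlap for 2 members (4.88%), OPTN and MITF, both lower, and for 1.88% of all genes. The direction was the same in all 4 pairs for 10 members (24.4%) and for 20.8% of all genes. Of these 10, BECN1, WIPI1, ATG9A, CTSL, HEXA and PSAP were higher, and OPTN, ATG14, MITF and CTSB were lower. The fit bounded most of the members closely, since with the block the 95% interval of 36 of the 41 log2 fold changes lay within 1.5-fold in either direction (24 without the block). GABARAP, BECN1, ATG7, MCOLN1 and CTSZ lay outside that bound, and their intervals leave larger changes possible.

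**Figure D1:**
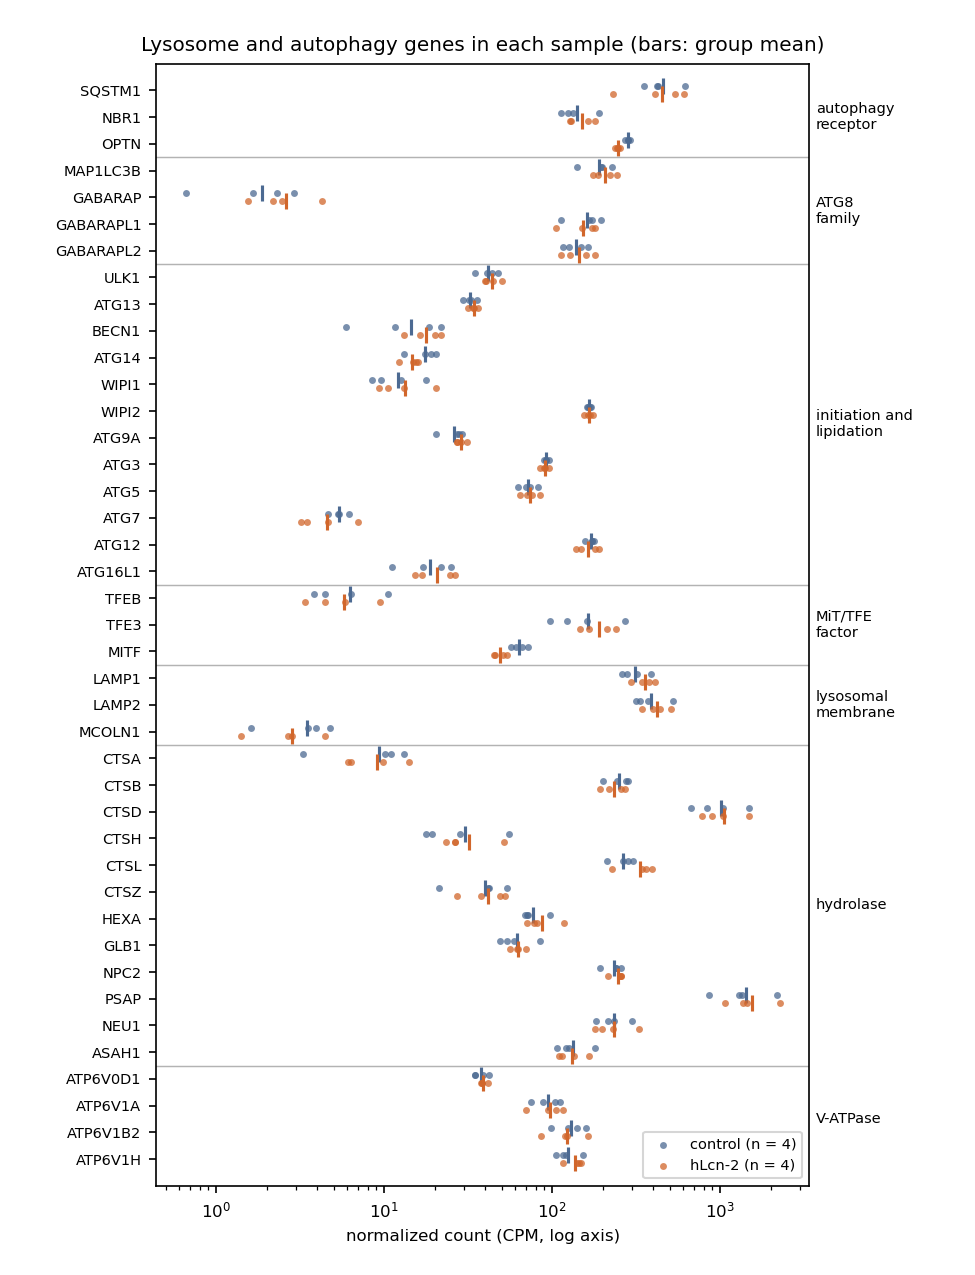
Normalized count (CPM, log axis) of each of the 41 members in the 4 control samples (blue) and the 4 hLcn-2 samples (orange), with the group mean as a bar. The members span 1.87 CPM (GABARAP) to 1419 CPM (PSAP) in the control mean, and the colours separate without overlap only for OPTN and MITF.

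The MiT/TFE factors control transcription of lysosomal genes, and the family did not move together. MITF (chr3:69739456-69968336, plus strand, 10 exons in GENCODE 44), better known as the master regulator of melanocytes, lay at 60.6, 56.6, 66.1 and 71.8 CPM in controls 1 to 4 and at 45.4, 44.8, 50.9 and 53.9 CPM in hLcn-2 samples 1 to 4. Every hLcn-2 sample was below every control sample. The log2 fold change was -0.38 ± 0.14 (SE, n = 4 per group). The exact two-sided permutation p was 0.0286, the smallest that 4 against 4 samples can give when the pairs are disregarded. After adjustment across all genes p was 1.0 in limma and 0.109 with the replicate block, 0.0520 in edgeR's quasi-likelihood test with the block and 0.0793 in DESeq2 with the block. The decrease was of like size in each pair, -0.41, -0.33, -0.37 and -0.41, and lay between -0.43 and -0.32 whichever single sample was left out.

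TFE3 (chrX:49028726-49043410, minus strand), which shares the E-box with MITF, lay at 123, 97.1, 271 and 161 CPM in controls 1 to 4 and at 147, 165, 239 and 213 CPM in hLcn-2 samples. The groups overlapped, since the highest value of all was that of control 3. Its log2 fold change was 0.31 ± 0.27 (SE, n = 4 per group), higher in 3 of 4 pairs, and its adjusted p with the block was 0.318 in limma and 0.174 in edgeR's quasi-likelihood test. Without control 3 the log2 fold change was 0.59, and without control 2 it was 0.096. TFEB (chr6:41683978-41736259, minus strand), the best-known activator of lysosomal genes, was low in these cells, with 3.80, 4.43, 6.35 and 10.5 CPM in controls and 4.45, 3.38, 9.38 and 5.87 CPM in hLcn-2 samples, from 16 to 59 reads per library. Its groups overlapped fully, and its log2 fold change of -0.093 ± 0.34 (SE) was smaller than its error, with opposite signs among the pairs.

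**Figure D2:**
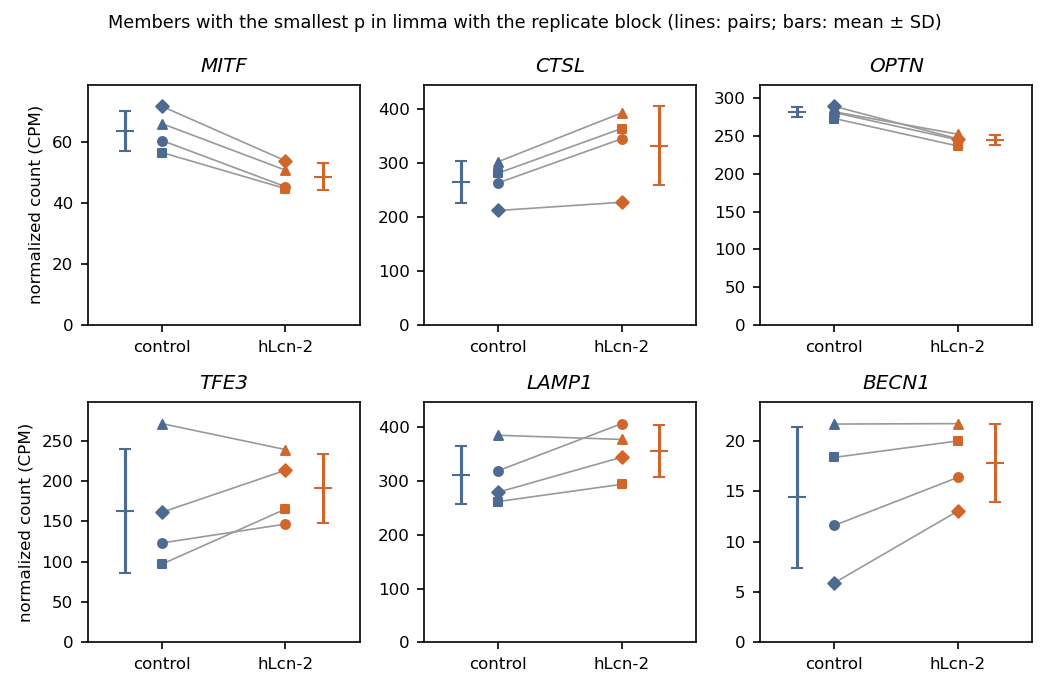
Normalized count (CPM, axis from 0) of the 6 members with the smallest p-values in limma with the replicate block, with same-numbered samples joined by a line (circle 1, square 2, triangle 3, diamond 4) and group means ± SD (n = 4) at the sides. MITF and OPTN are lower in all 4 pairs and CTSL and BECN1 higher in all 4, while TFE3 and LAMP1 are higher in 3 of 4.

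Among the hydrolases, CTSL was the one member called by any of the fits to all 8 samples. CTSL (chr9:87724051-87731469, plus strand, 8 exons) encodes cathepsin L, a cysteine protease of the lysosome. It lay at 263, 281, 302 and 212 CPM in controls 1 to 4 and at 345, 364, 392 and 227 CPM in hLcn-2 samples 1 to 4. The first 3 hLcn-2 samples were above every control, and the fourth was below 3 of the 4 controls. The log2 fold change was 0.31 ± 0.18 (SE, n = 4 per group) without the block and ± 0.077 with it, at 0.39, 0.37, 0.38 and 0.10 in pairs 1 to 4. Adjusted p-values were 1.0 in limma, 0.124 in limma with the block, 0.0515 in DESeq2 with the block and 0.0468 in edgeR's quasi-likelihood test with the block. That last call was lost without any one of pairs 1 to 3, when its adjusted p was 0.238, 0.312 and 0.202 without pair 1, 2 or 3, and 0.0145 without pair 4. Limma with the block also called CTSL without pair 4, with an adjusted p = 0.0425.

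The other cathepsins gave no call. CTSB (chr8:11842524-11869533, minus strand), cathepsin B and likewise a cysteine protease, lay at 276, 242, 284 and 200.2 CPM in controls and at 256, 218, 271 and 192 CPM in hLcn-2 samples. Each hLcn-2 sample was slightly below its same-numbered control, yet the groups overlapped, with a log2 fold change of -0.096 ± 0.16 (SE) and an adjusted p = 0.640 in limma with the block. CTSD (chr11:1752752-1764573, minus strand), the aspartic protease cathepsin D, lay at 837, 674, 1493 and 1035 CPM in controls and at 1046, 777, 1482 and 897 CPM in hLcn-2 samples. Sample 3 was the highest in both groups, pairs 1 and 2 were higher and pairs 3 and 4 lower, and the log2 fold change was 0.077 ± 0.25 (SE). HEXA (chr15:72340924-72376420, minus strand), the alpha subunit of beta-hexosaminidase, lay at 71.0, 68.9, 96.9 and 71.8 CPM in controls and at 80.9, 70.7, 117 and 77.8 CPM in hLcn-2 samples. All 4 pairs were higher, again with sample 3 on top. The log2 fold change was 0.15 ± 0.18 (SE) without the block and ± 0.087 with it, with an adjusted p = 0.527 in limma with the block. The other 8 genes of this group, CTSA, CTSH, CTSZ, GLB1, NPC2, PSAP, NEU1 and ASAH1, had log2 fold changes between -0.0075 and 0.15, none with an unadjusted p under 0.087 in limma with the block. By direction, 9 of the 12 hydrolases and cofactors were higher and 3 lower, with a median of 0.079.

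In the lysosomal membrane the lining proteins LAMP1 and LAMP2 were higher on average without passing the adjusted test. LAMP1 (chr13:113297239-113323672, plus strand), whose promoter holds the 6 E-boxes shown above, lay at 319, 262, 385 and 279 CPM in controls and at 407, 294, 377 and 344 CPM in hLcn-2 samples. Pairs 1, 2 and 4 were higher and pair 3 was nearly level. The log2 fold change was 0.20 ± 0.15 (SE, n = 4 per group), with an adjusted p = 0.348 in limma with the block. LAMP2 (chrX:120426148-120469365, minus strand), which serves as receptor in chaperone-mediated autophagy, lay at 372, 317, 527 and 334 CPM in controls and at 441, 396, 510.5 and 345 CPM in hLcn-2 samples. Pair 3 alone was lower, as for LAMP1, and its log2 fold change was 0.14 ± 0.18 (SE, adjusted p = 0.521 in limma with the block). MCOLN1, with 2 E-boxes, had between 6 and 47 reads per library and a log2 fold change of -0.22 ± 0.32 (SE).

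None of the 4 vacuolar ATPase subunits had an adjusted p under 0.05 in any fit run. ATP6V1H (chr8:53715543-53843558, minus strand), a regulatory subunit of the cytosolic V1 sector, lay at 121, 116, 152 and 105 CPM in controls and at 145, 139.6, 149 and 116 CPM in hLcn-2 samples. It was higher in pairs 1, 2 and 4, and its log2 fold change was 0.16 ± 0.15 (SE) without the block and ± 0.084 with it, with an adjusted p = 0.492 in limma with the block. ATP6V1B2 (chr8:20197381-20226819, plus strand), part of the nucleotide-binding head of the same sector, lay at 159, 124, 139.8 and 98.1 CPM in controls and at 163, 119, 123 and 85.5 CPM in hLcn-2 samples. The direction was opposite, with pair 1 alone higher, and the log2 fold change was -0.10 ± 0.20 (SE). ATP6V1A and ATP6V0D1 had log2 fold changes of 0.027 and 0.052.

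Of the autophagy receptors, OPTN was the one that separated the groups. OPTN (chr10:13099449-13138308, plus strand), optineurin, which carries ubiquitinated mitochondria and bacteria into autophagosomes, lay at 281, 273, 282 and 289 CPM in controls and at 245, 237, 252 and 246 CPM in hLcn-2 samples. Every hLcn-2 sample was below every control, and the SD was 6.57 and 6.43 CPM around means of 281 and 245 CPM. The log2 fold change was -0.20 ± 0.11 (SE, n = 4 per group), with an exact permutation p = 0.0286, and between -0.21 and -0.18 with any single sample left out. Across all genes its adjusted p was 1.0 in limma, 0.280 with the block and 0.267 in edgeR's quasi-likelihood test with the block. Limma moderates the spread of each gene toward that of genes of like level, and the SE of OPTN of 0.11 is larger than its own samples alone would give.

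SQSTM1 (chr5:179806398-179838078, plus strand) encodes p62, the classical receptor for ubiquitinated cargo, which also binds KEAP1. It lay at 350.1, 429, 619 and 420.1 CPM in controls and at 231, 542, 609 and 409 CPM in hLcn-2 samples. The pairs disagreed, with pair 1 lower by 0.60 and pair 2 higher by 0.34 on the log2 scale and the other two nearly level. Its log2 fold change of -0.080 ± 0.27 (SE) changed sign when a sample was left out, to 0.21 without hLcn-2 sample 1 and 0.078 without control 3, and lay at -0.26 without hLcn-2 sample 3. NBR1 (chr17:43170481-43211689, plus strand), a receptor related in structure to p62, lay at 133, 114, 191 and 124 CPM in controls and at 164, 129, 181 and 128 CPM in hLcn-2 samples. Sample 3 stood highest in both groups, and the log2 fold change was 0.11 ± 0.18 (SE), higher in 3 of 4 pairs.

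The ATG8 proteins are conjugated to lipid on the growing autophagosome. MAP1LC3B (chr16:87383953-87404779, plus strand), LC3B, the usual marker of autophagosomes, lay at 198, 227, 195 and 141 CPM in controls and at 186, 244, 221 and 175 CPM in hLcn-2 samples. The groups overlapped, 3 of 4 pairs were higher, and the log2 fold change was 0.13 ± 0.17 (SE), with an adjusted p = 0.585 in limma with the block. Reads that match both MAP1LC3B and its near-identical copy MAP1LC3B2 cannot be told apart, and the sources do not state how such reads were counted. GABARAP (chr17:7240008-7242449, minus strand) had 41, 22, 13 and 1 reads in controls 1 to 4 and 48, 11, 5 and 10 reads in hLcn-2 samples, or 0.658 to 2.89 CPM and 1.55 to 4.28 CPM. Its control value in sample 4 lay below the worth of 3 reads, and its last exon overlaps an exon of another gene on the same strand, so its level is uncertain and its log2 fold change of 0.35 ± 0.32 (SE) was not distinguishable from none at this depth. GABARAPL1 and GABARAPL2 were much better covered, with control means of 162 and 138 CPM and log2 fold changes of -0.090 and 0.060.

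Among the 12 genes of initiation and lipidation, 8 were higher and 4 lower. BECN1 (chr17:42810134-42833350, minus strand), Beclin 1, a core subunit of the lipid kinase complex that starts the autophagosome, lay at 11.6, 18.4, 21.7 and 5.93 CPM in controls and at 16.4, 20.0, 21.7 and 13.0 CPM in hLcn-2 samples. All pairs were higher, pair 3 by only 0.0027 and pair 4 by 1.02 on the log2 scale, and control 4 rested on 9 reads. The log2 fold change of 0.40 ± 0.33 (SE) fell to 0.062 without control 4, and the adjusted p was 0.382 in limma with the block. ATG14 (chr14:55366391-55411830, minus strand), which directs the same complex to the site of membrane formation, lay at 18.9, 17.4, 20.3 and 13.2 CPM in controls and at 15.5, 15.9, 14.8 and 12.2 CPM in hLcn-2 samples. It was lower in all 4 pairs, the opposite direction to its partner BECN1, with a log2 fold change of -0.23 ± 0.19 (SE, adjusted p = 0.550 in limma with the block), and the groups overlapped through control 4. The other 10 genes, among them the kinase gene ULK1 and the conjugation genes ATG3, ATG5, ATG7, ATG12 and ATG16L1, had log2 fold changes between -0.24 and 0.16, none with an unadjusted p under 0.286 in limma with the block.

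**Figure D3:**
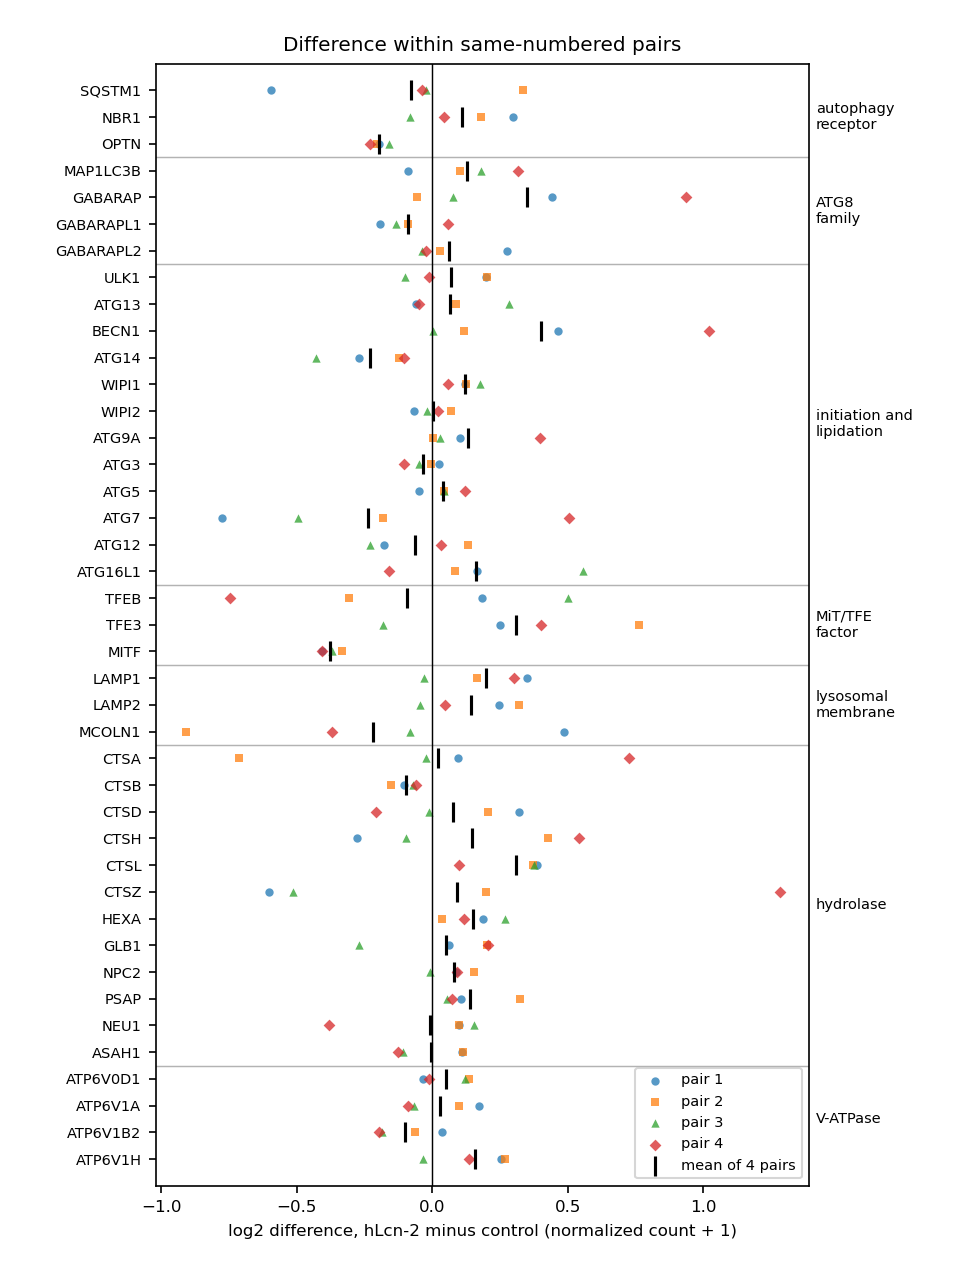
Difference on the log2 scale between the hLcn-2 and the control sample of each same-numbered pair (symbols) and their mean (bar) for the 41 members, grouped by role. OPTN and MITF have tight pairs below 0, and CTSL has 3 pairs close together and the fourth nearer to 0. Low-count genes such as GABARAP, BECN1, ATG7, TFEB and MCOLN1 spread widely. So do the better covered CTSZ, SQSTM1 and TFE3, with control means of 39.7, 455 and 163 CPM.

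The factors' own E-box did not mark a common direction. The 8 members with CACGTG in the promoter sequence had a median log2 fold change of 0.0068, 4 higher and 4 lower, and the 25 with a promoter sequence without it had a median of 0.071, 18 higher and 7 lower. LAMP1, with 6 copies, had the highest value among the 8, and ATG14, with 1 copy, the lowest. No test was made of this division.

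Another 134 measured lysosome and autophagy genes gave a like picture. They were listed by hand from the same pathways, with earlier results of these data known. Their median log2 fold change was 0.037, with 79 higher and 55 lower. Limma called 0 of them with or without the block. Without adjustment and without the block it gave 1 gene (0.746%) a p under 0.05, against 2.28% of all genes. With the block it gave 22 (16.4%), 17 higher and 5 lower, against 12.2% of all genes. EdgeR's quasi-likelihood test with the block called 4 (2.99%, against 1.49% of all genes), all higher, namely SESN2, MANBA, LGMN and IGF2R. DESeq2 with the block called 3 of these, not LGMN, of the 117 with an adjusted p (2.56%, against 2.02% of all genes with one). The direction was the same in all 4 pairs for 34 of the 134 (25.4%), 23 higher and 11 lower, and for 20.8% of all genes. The groups did not overlap for 1 of the 134 (0.746%), SLC36A1, and for 1.88% of all genes.

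SESN2, a stress-inducible sensor of leucine that restrains mTORC1 at the lysosome, lay at 86.4, 122, 86.5 and 77.7 CPM in controls and at 98.6, 210.5, 108 and 184 CPM in hLcn-2 samples. Its groups overlapped through control 2, and the log2 fold change was 0.63 ± 0.24 (SE, n = 4 per group), with an adjusted p = 0.0820 in limma with the block and 0.0150 in edgeR's quasi-likelihood test with the block. Without pair 2 the latter was 0.136. MANBA, lysosomal beta-mannosidase, lay at 40.1, 39.2, 54.5 and 27.0 CPM in controls and at 77.9, 47.2, 72.1 and 38.1 CPM in hLcn-2 samples. All 4 pairs were higher with overlapping groups, the log2 fold change was 0.52 ± 0.26 (SE), and the adjusted p of 0.0193 in edgeR's quasi-likelihood test with the block was 0.257 without pair 1 and 0.0536 without pair 3.

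LGMN, the asparaginyl endopeptidase legumain, which processes cathepsins including cathepsin L, lay at 57.3, 58.4, 70.3 and 53.3 CPM in controls and at 90.5, 65.5, 114 and 60.9 CPM in hLcn-2 samples. The increase was large in pairs 1 and 3 and small in pairs 2 and 4, with a log2 fold change of 0.42 ± 0.20 (SE). Its adjusted p in edgeR's quasi-likelihood test with the block was 0.0383, and 0.257, 0.0648 and 0.207 without pair 1, 2 or 3. IGF2R, the receptor that sorts mannose 6-phosphate-tagged hydrolases to the lysosome, lay at 267, 315, 425 and 239 CPM in controls and at 448, 377, 523 and 296 CPM in hLcn-2 samples. Each hLcn-2 sample was above its same-numbered control, although the groups overlapped, and the log2 fold change was 0.40 ± 0.21 (SE). The adjusted p of 0.0208 in edgeR's quasi-likelihood test with the block became 0.217, 0.0661 and 0.0671 without pair 1, 2 or 3. NCOA4, the receptor that delivers ferritin to the lysosome for release of its iron, lay at 157, 153, 171 and 168 CPM in controls and at 177, 144, 165 and 155 CPM in hLcn-2 samples. It was higher in pair 1 alone, and its log2 fold change of -0.021 ± 0.12 (SE) had a 95% interval of -0.19 to 0.15 with the block.

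**Figure D4:**
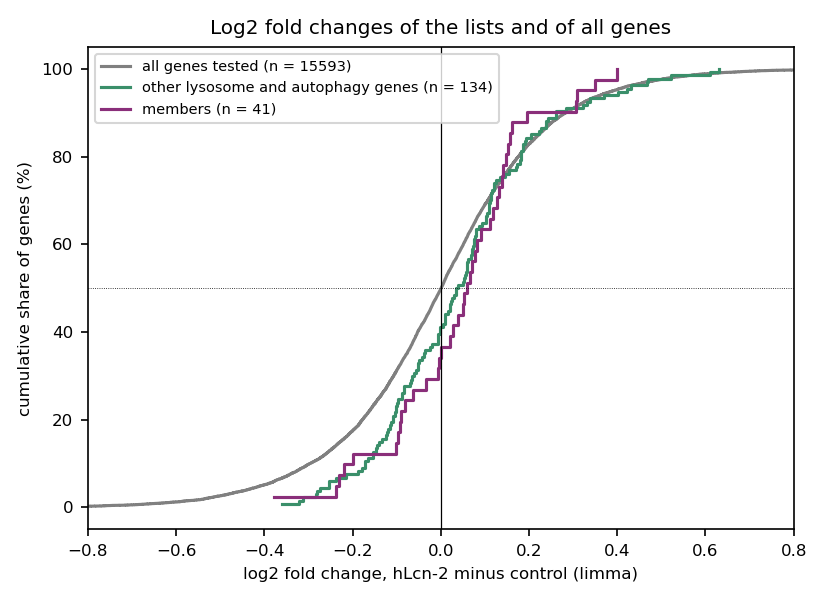
Cumulative share of genes (%) against the log2 fold change (hLcn-2 minus control) for the 41 members, the 134 other lysosome and autophagy genes and the 15593 genes tested. The curves of both lists cross 50% at 0.060 and 0.037, to the right of all genes at 0.00083. Both rise more steeply than that of all genes. The median SE without the block was 0.18 for the members, 0.19 for the other genes and 0.24 for all genes. Its part in the steeper rise was not tested.

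Sample 3 of each group stood high among the members, though not in every role, a pattern given here without a test. In controls, sample 3 was the highest of the 4 for 26 of the 41 members (63.4%), against 32.2% of all genes tested, and in hLcn-2 samples for 21 (51.2%), against 28.6%. Sample 3 was highest in both groups for 18 members (43.9%) and for 17.5% of all genes. Sample 3 exceeded the mean of the other 3 samples by a median of 0.33 on the log2 scale in controls and 0.20 in hLcn-2 samples, against 0.020 and -0.049 for all genes. The 134 other lysosome and autophagy genes showed it as well, with sample 3 highest for 51.5% in controls, 38.1% in hLcn-2 samples and 34.3% in both. By role, 11 of the 12 hydrolases and cofactors were highest in control 3, 9 in hLcn-2 sample 3 and 9 in both. All 3 lysosomal membrane genes were highest in control 3, with 2 highest in hLcn-2 sample 3 and 2 in both. The 3 autophagy receptors were all highest in hLcn-2 sample 3, with 2 highest in control 3 and 2 in both. Of the 12 genes of initiation and lipidation, 5 (41.7%) were highest in control 3, 3 (25.0%) in hLcn-2 sample 3 and 2 (16.7%) in both. The ATG8 family and the vacuolar ATPase each had 2, 1 and 1 of 4 genes. PSAP, the precursor of the saposins that assist sphingolipid breakdown, was chosen after its values were seen, and lay at 1348, 858, 2172 and 1299.8 CPM in controls and at 1449, 1073, 2257 and 1367 CPM in hLcn-2 samples. MITF and OPTN showed little of this pattern. Control 3 was above the mean of the other 3 by 0.075 and 0.0048 on the log2 scale, and hLcn-2 sample 3 by 0.085 and 0.057. OPTN was nonetheless highest in hLcn-2 sample 3. Control 3 and hLcn-2 sample 3 held 5799151 and 2088266 reads, the latter the shallowest library of its group, and the part of depth in this pattern was not tested. With the block, which removes what same-numbered samples share, the median SE of the members fell from 0.18 to 0.088, and 0 members were called by limma in either fit.

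**Figure D5:**
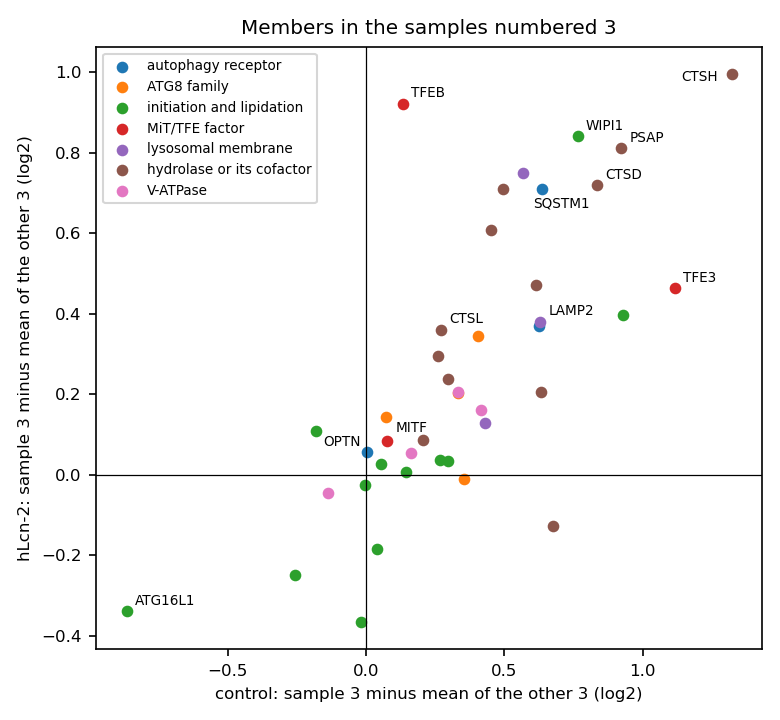
Sample 3 minus the mean of the other 3 samples on the log2 scale, in controls (x axis) and in hLcn-2 samples (y axis), for each of the 41 members, coloured by role. Most hydrolases lie in the upper right, above 0 in both groups, and MITF and OPTN lie near 0.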

How the data were processed

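RNA of CAKI1 cells was sequenced from 4 control and 4 hLcn-2 samples as QuantSeq 3′ libraries with unique molecular identifiers. After alignment by STAR (GRCh38), collapsing by identifier and counting by HTSeq, the authors deposited a scaled signal, namely normalized counts on the scale of CPM. The tools' versions and whether counting used strand are not given in the sources used here, and the last exon of 11 members overlaps another gene (SQSTM1, GABARAP, BECN1, ATG14, WIPI1, ATG9A, ATG7, MCOLN1, CTSA, CTSD, NPC2). All 134256 values came out as whole reads (tolerance 1e-06), and 1 cell with a decimal comma was read as a decimal point.

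Limma 3.58.1 (R 4.3.3, intensity trend, two-sided) was run on log2(normalized count + 1) for the 15593 genes that reached 1 CPM in 2 or more samples, with Benjamini-Hochberg adjustment over all of them. This test, planned for normalized values, was kept although reads could be recovered. EdgeR 4.0.16 and DESeq2 1.42.0 were run on the recovered reads, and scripts were tested on simulated data. The replicate numbers pair the samples, with correlations of the deviations of same-numbered samples between 0.31 and 0.61 (mean 0.50). The members and the list of 139 further genes, of which 5 were not analysed here, were chosen with earlier results of these data known. Given with every sample were the defining genes SQSTM1, MAP1LC3B, TFEB, TFE3, MITF, LAMP1, CTSD and CTSB, any member called by limma or edgeR, and the 2 members with the smallest p in limma in each role, and of the other genes those called with the block and NCOA4. Exact permutation tests used all 70 regroupings and disregarded the pairs. Coordinates are from GENCODE 44.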

Additional observations from a re-analysis of the deposited data

Results flagged for a closer look

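In 4 of the 82 groups of 4 values examined for the members, 1 sample lay far from the other 3, and about 4.1 such groups are expected by chance at the 95% critical value. CTSH, a lysosomal aminopeptidase, lay at 51.3 CPM in hLcn-2 sample 3, above the others. HEXA lay at 96.9 CPM in control 3, above the others. NPC2, the soluble cholesterol-binding protein of the lysosome, lay at 216 CPM in hLcn-2 sample 2, below the others. ATP6V0D1, a subunit of the membrane sector of the vacuolar ATPase, lay at 41.7 CPM in hLcn-2 sample 4, above the others.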

How the results depend on the processing

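The median log2 fold change of the members lay between 0.029 and 0.070 in all fits to the 8 samples, and between -0.0060 and 0.13 with samples left out. Other pseudocounts, filters, normalizations or no intensity trend left the count of called members at 0. With the replicate block, genes called over the whole table numbered 44 in limma, 233 in edgeR's quasi-likelihood test and 181 in DESeq2, called members 0, 1 and 0, and called other lysosome and autophagy genes 0, 4 and 3. With the block and without pair 1, 2, 3 or 4, limma called 14, 3, 0 and 58 genes, 0, 0, 0 and 1 members and 1, 0, 0 and 0 other genes, and edgeR, added after the data were seen, 66, 56, 125 and 221 genes, 0, 0, 0 and 1 members and 1, 1, 1 and 6 other genes. No gene was called without the block with any single sample left out. In 18 cases a named gene passed the threshold that it missed in limma without the block, each time with the block, and the block changed no other call of a named gene.

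The sign changed only with samples left out, and the cause was not tested. With single samples left out the log2 fold change ranged from -0.26 to 0.21 for SQSTM1, -0.0096 to 0.22 for MAP1LC3B, -0.32 to 0.16 for TFEB, -0.10 to 0.29 for CTSD, -0.00074 to 0.26 for HEXA, -0.25 to 0.057 for ATP6V1B2 and -0.070 to 0.029 for NCOA4. With the block it was 0.092 for SQSTM1 and -0.0045 for CTSD without pair 1, 0.00042 for NCOA4 without pair 2, and 0.12 for TFEB and 0.0099 for NCOA4 without pair 4. In edgeR with the block it was 0.10 for SQSTM1 without pair 1, 0.066 for TFEB and 0.019 for NCOA4 without pair 2, and 0.12 for TFEB and 0.032 for NCOA4 without pair 4. Depth limits GABARAP, TFEB, MCOLN1 and ATG7 most.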

Other observations

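By role, the other lysosome and autophagy genes did not share one direction. Of 17 further lysosomal membrane genes 15 were higher and 2 lower after hLcn-2 (88.2% higher, against 50.2% of all genes tested), with a median log2 fold change of 0.086 and 4 of them higher in all 4 pairs. One of these, SLC36A1, a proton-coupled amino acid transporter, was chosen here after its values were seen. It lay at 25.3, 22.0, 25.0 and 22.4 CPM in controls and at 37.8, 26.3, 28.1 and 28.1 CPM in hLcn-2 samples, without overlap. It was the 1 gene without overlap among the 134 others (0.746%, against 1.88% of all genes tested). Its adjusted p was 0.301 in limma with the block. Of 34 further hydrolases and cofactors 21 were higher (61.8%), with a median of 0.063. The 11 further subunits of the vacuolar ATPase had 4 higher and 7 lower, the 17 further genes of initiation and lipidation 7 higher and 10 lower, and the 13 genes of autophagosome fusion 6 higher and 7 lower. None of these divisions was tested.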
